A study of Mus musculus with 3 samples.

Results

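Glycolysis and the pentose phosphate pathway were described gene by gene in blood monocytes of the mouse. The 40 genes were named from the pathway, with earlier results of these data known. They fill 25 steps or roles, from glucose uptake through the sugar phosphates to pyruvate and its fates. They are 40 of the 55536 genes in the deposited tables. The series holds 3 total-RNA libraries of 1 group, labelled as monocytes from the peripheral blood of C57BL/6J mice aged 5 to 6 weeks, with no treatment and no other genotype. Each library was made from 100 ng of RNA depleted of ribosomal RNA, and recorded fragment sizes ran from 200 to 594 bp in library 1, 200 to 491 bp in library 2 and 200 to 1000 bp in library 3. The labels give no sex, and the sources used here do not describe the gate used to isolate the cells. Because 1 donor record is attached to all 3 libraries, the p-values reflect how far the libraries differ among themselves, and that variation may be technical.

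Glycolysis splits glucose into pyruvate and yields ATP and NADH in the cytosol, and the pentose phosphate pathway branches off at glucose-6-phosphate to supply NADPH and ribose phosphate. Most steps can be run by several isozymes, enzymes of the same reaction encoded by separate genes, which differ in regulation and in the tissues that use them. In myeloid cells glycolysis feeds rapid responses, and NADPH serves the oxidative burst and the defence against oxidants.

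The libraries held 27.2, 26.5 and 19.9 M expected counts in libraries 1, 2 and 3. Levels are given in TPM, the share of a library's transcripts after division by transcript length, scaled to a fixed total, and errors are SD over 3 libraries. Protein-coding genes took the smaller part of the TPM total here. If they made up the whole total, 1 TPM would be 9.16, 10.2 and 9.34 TPM in libraries 1, 2 and 3. Of 10 monocyte markers, 9 lay above 1 TPM, and the 10 together summed to 2496, 2098 and 1603 TPM. The largest parts of that sum were lowest in library 3, Lyz2 at 1448, 1238 and 718 TPM and Ctss at 497, 369 and 234 TPM. Cx3cr1 was lowest there too, and Spn was lowest in library 2. The other markers of the list, Nr4a1, Csf1r, Tyrobp, Itgam, Ccr2 and Fcgr1, were each highest in library 3. Markers of other blood cells were also present, and most of these sums stood apart in library 3. The 6 natural killer cell markers summed to 607, 503 and 1441 TPM, the 6 platelet markers to 15.3, 11.2 and 96.6 TPM, and the 6 red cell markers to 3533, 3326 and 263 TPM. The 6 neutrophil markers summed to 140, 126 and 9.44 TPM, with Ly6g at 0 counts in every library. Retnlg made up most of that sum in libraries 1 and 2, at 124 and 114 TPM, and had 0 TPM in library 3. Cxcr2, S100a8 and S100a9 were also lowest in library 3, whereas Csf3r was highest there, at 5.99, 6.64 and 8.09 TPM. The 5 basophil or eosinophil markers summed to 24.3, 25.3 and 3.09 TPM, with Epx at 0. The 5 B cell markers summed to 90.6, 90.2 and 80.7 TPM and the 5 T cell markers to 2.51, 2.96 and 5.11 TPM. In such bulk samples fewer cells of a type and less RNA per cell cannot be told apart.

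Most of the 40 listed genes were present above the fixed level of 1 TPM against which every gene was tested. By edgeR's quasi-likelihood test with Benjamini-Hochberg adjustment at 0.05, 32 of the 40 genes lay above 1 TPM and 1 below it, 6 on neither side, and Eno2 had no counts. Over all 17678 genes tested, 43.3% lay above 1 TPM and 3.69% below, and over the 12996 protein-coding genes tested 54% lay above. The median level of the 39 listed genes tested was 2.68 (log2 of the ratio to 1 TPM). It was 1.06 for protein-coding genes and 0.24 for all genes tested. The 40 genes were listed with earlier results of these data known. Of 53 further genes of the same pathways, 35 could be tested. Of those, 54.3% lay above 1 TPM, at a median level of 0.91. The part of the choice of genes in these shares was not tested. Among the 40, all 3 glucose carriers and all 7 pentose phosphate genes lay above 1 TPM. So did 15 of 21 genes of glycolysis and 6 of 8 genes of the fates of pyruvate. The 33 genes with a mean of 1 TPM or more had a median coefficient of variation between libraries of 18.2%. That of the 8302 protein-coding genes at that level was 24.5%. These sets were not matched for level above that floor. The values thus do not show whether pathway genes varied less than other genes of like level.

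**Figure D1:**
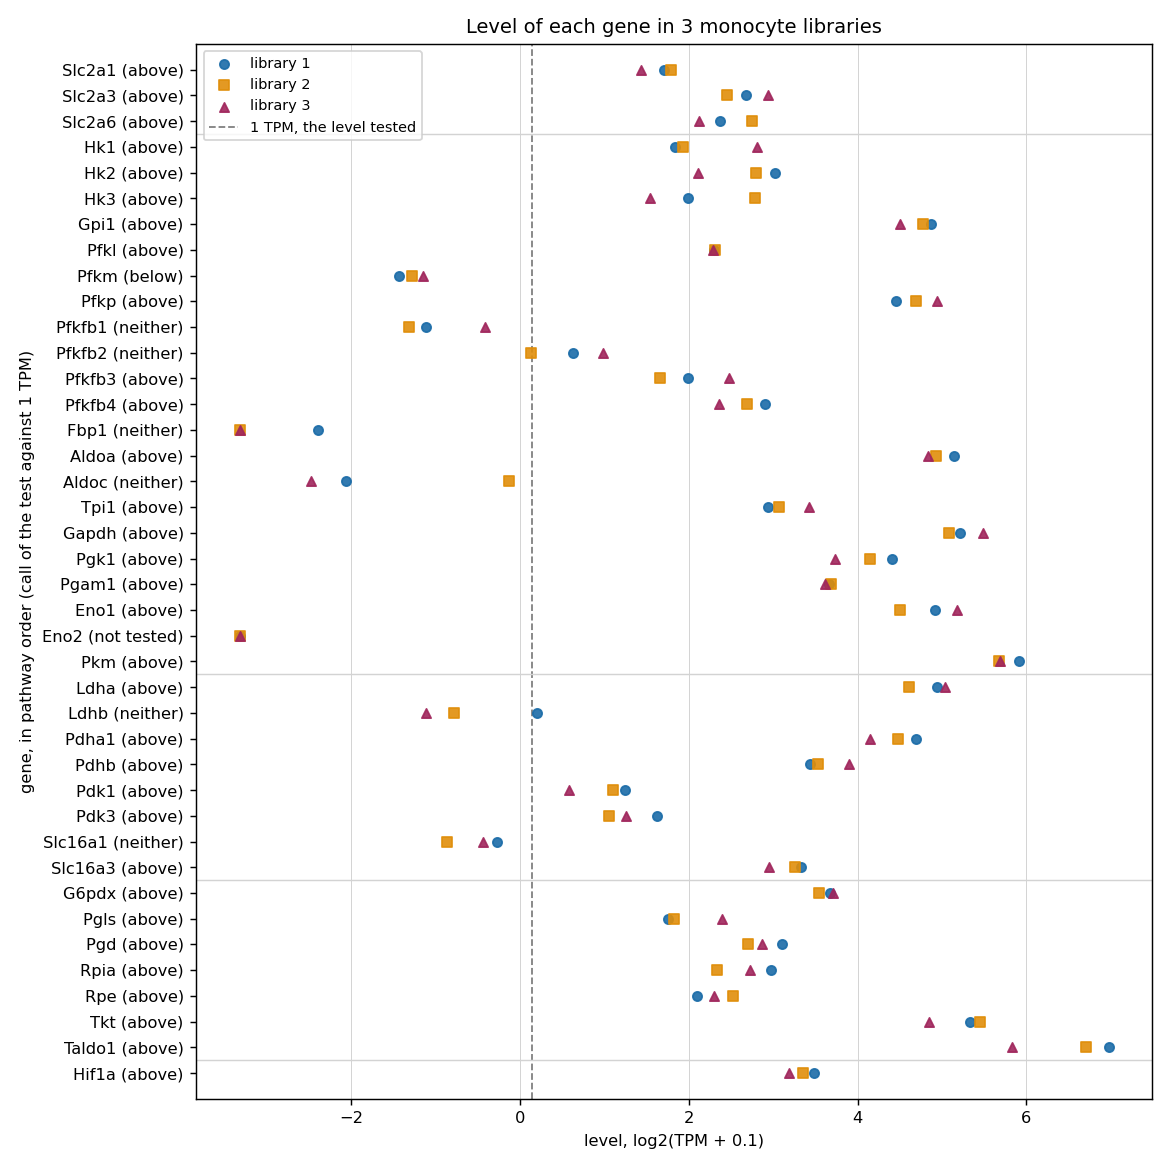
Level of each of the 40 genes as log2(TPM + 0.1) in 3 monocyte libraries, in pathway order from glucose uptake at the top, with the call of the test against 1 TPM (dashed line) beside each name. Taldo1 lay farthest to the right at a mean of 95.7 TPM, and Fbp1 and Eno2 farthest to the left, with 0 in 2 and 3 libraries.

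Glucose enters the cell through facilitative carriers. Slc2a1, the widespread carrier GLUT1, had 3.16, 3.36 and 2.60 TPM in libraries 1, 2 and 3. Slc2a6, a carrier named GLUT6 that is known from spleen and leukocytes, had 5.08, 6.63 and 4.24 TPM, and Slc2a3, the high-affinity carrier GLUT3, had 6.31, 5.39 and 7.59 TPM. Slc2a1 was the lowest of the 3 carriers in each library, whereas the order of Slc2a6 and Slc2a3 was not the same in every library. Slc2a1 lay below Slc2a3 by a log2 ratio of -1.05 ± 0.43 (n = 3) and below Slc2a6 by -0.77 ± 0.16 (n = 3), in 3 of 3 libraries each. Slc2a6 exceeded Slc2a3 in library 2 alone, and their log2 ratio was -0.28 ± 0.56 (n = 3).

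Within-library ratios of this kind were taken for 20 pairs of isozymes on the log2(TPM + 0.1) scale, which understates the ratio where a gene is low. For 15 of the 20 pairs the direction was the same in 3 of 3 libraries, and for 12 of them the ratio passed 1 on the log2 scale in every library. With 3 libraries the smallest p of an exact sign-flip test (two-sided) is 0.25, or 0.333 after Benjamini-Hochberg adjustment over the 20 pairs. Each of the 15 pairs stood at that smallest value, so no ratio passed a threshold, and the number of libraries with a common direction is given instead. Counted in protein-coding transcripts alone, 11 of the 15 pairs kept their direction in 3 of 3 libraries. The 4 that did not were Slc2a1 with Slc2a6, Hk3 with Hk2, Pfkfb1 with Pfkfb2 and Pfkfb2 with Pfkfb4.

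Hexokinase, which traps glucose as glucose-6-phosphate, changed its make-up between libraries. The SD of the Hk1 share, 15.9 percentage points, was the largest of any isozyme in the steps compared. Hk1, the widespread isozyme bound to mitochondria, had 3.47, 3.70 and 6.89 TPM in libraries 1, 2 and 3. Hk3, an isozyme known from myeloid cells, had 3.86, 6.76 and 2.80 TPM, and Hk2, the isozyme induced by insulin and by HIF-1, had 8.03, 6.86 and 4.21 TPM. Hk1 was thus the lowest of the 3 in libraries 1 and 2 and the highest in library 3. It made up 22.6%, 21.4% and 49.6% of the hexokinase TPM in libraries 1, 2 and 3. Hk3 made up 25.1%, 39.0% and 20.1%, and Hk2 52.3%, 39.6% and 30.3%. The summed level of the step changed less than its parts, at 15.4, 17.3 and 13.9 TPM.

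The ratio of Hk1 to Hk2 was -1.19, -0.87 and 0.70 on the log2 scale in libraries 1, 2 and 3, and that of Hk1 to Hk3 was -0.15, -0.85 and 1.27. The spread between libraries was larger than the mean ratio for both pairs, -0.45 ± 1.01 and 0.09 ± 1.08 (n = 3). Hk3 lay at or below Hk2 in 3 of 3 libraries, by -1.04, -0.02 and -0.57, although in library 2 the genes were level. The direction did not hold in every table: summed from the transcript tables made from the reads, the mean ratio of Hk1 to Hk2 was 0.12 and that of Hk3 to Hk2 was 0.08. Library 3 also had the highest summed TPM of natural killer cell and platelet markers and the lowest of neutrophil and red cell markers. The part of those cells in the hexokinase levels was not tested.

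**Figure D2:**
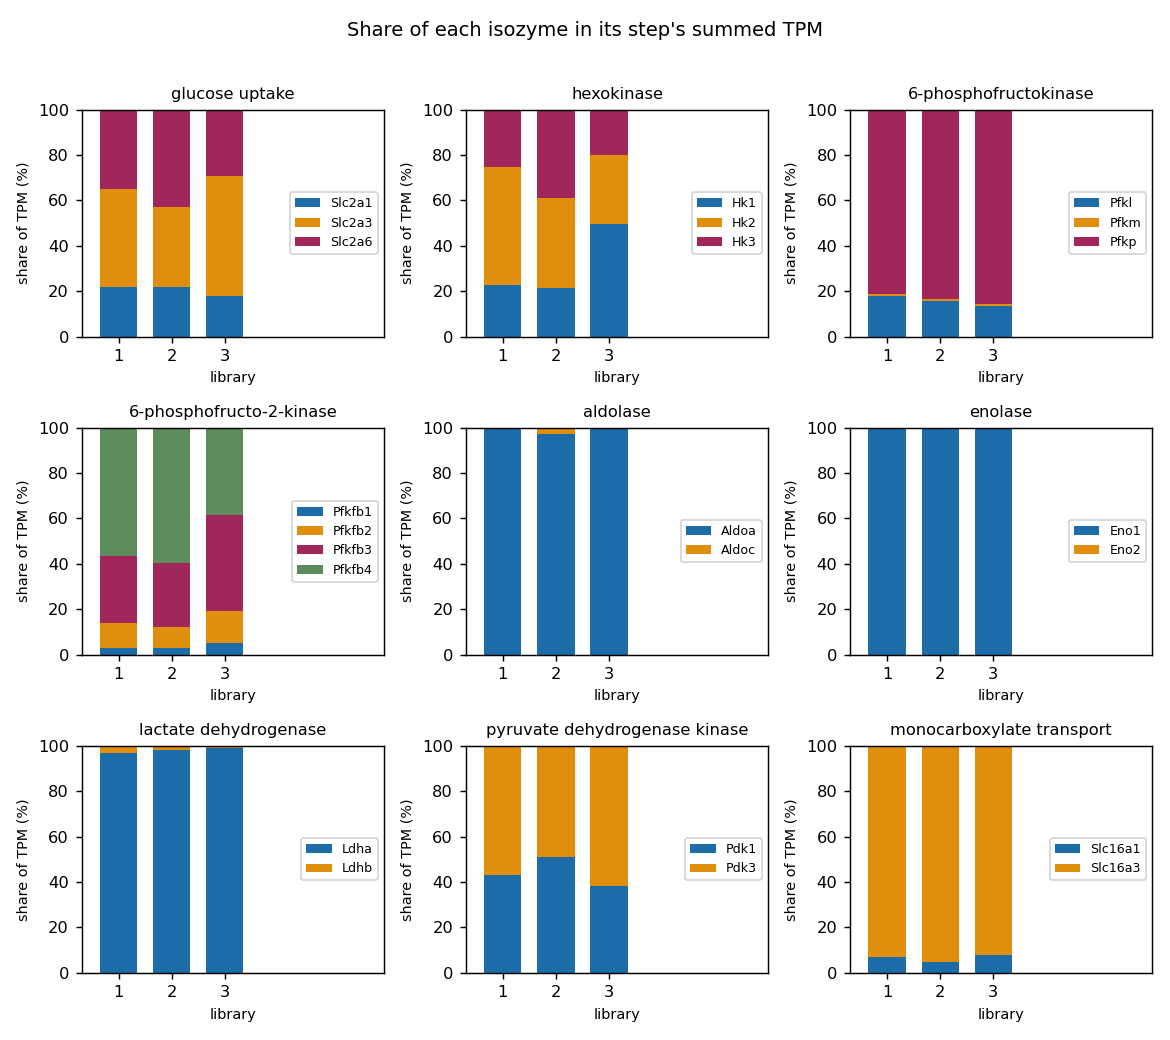
Share of each listed isozyme in the summed TPM of its step, in percent, as stacked bars for libraries 1, 2 and 3, in 9 steps with several listed genes. Pfkp, Aldoa, Ldha and Slc16a3 hold most of the listed TPM of their steps in each library. The hexokinase bars change, with Hk1 at 49.6% in library 3. Eno3 and Slc16a7, which are not among the listed genes, are not drawn under enolase and monocarboxylate transport.

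Gpi1, which turns glucose-6-phosphate into fructose-6-phosphate, had 29.1, 27.2 and 22.6 TPM. The next step, 6-phosphofructokinase, is the committed step of glycolysis and works as a tetramer of liver, muscle and platelet subunits. Pfkl, the liver subunit, had 4.83, 4.87 and 4.78 TPM in libraries 1, 2 and 3. Its coefficient of variation of 0.934% was the lowest of the 33 genes at 1 TPM or more. Pfkl was less even with the GENCODE M4 annotation, at 3.86, 3.49 and 3.27 TPM. In protein-coding transcripts alone it had 3.33, 3.03 and 2.39 TPM. Pfkm, the muscle subunit, had 0.27, 0.31 and 0.35 TPM, and Pfkp, the platelet subunit, had 21.8, 25.8 and 30.6 TPM. The 3 subunits did not overlap in any library, and Pfkp held 81.0%, 83.3% and 85.6% of the TPM of the step. In protein-coding transcripts alone Pfkp had 10.3, 9.42 and 16.5 TPM. On that scale its mean share of the step was 77.9%, and that of Pfkl was 20.1%. The log2 ratio of Pfkl to Pfkm was 3.59 ± 0.15, that of Pfkl to Pfkp was -2.39 ± 0.25 and that of Pfkm to Pfkp was -5.99 ± 0.10 (n = 3 each). Pfkp was highest in library 3, as were the platelet markers, which summed to 15.3, 11.2 and 96.6 TPM, and their part in its level was not tested.

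Pfkm was the single gene of the 40 called below 1 TPM, at a log2 level of -1.70 (edgeR quasi-likelihood test, adjusted p = 0.0448). That call was lost when any 1 library was left out, with adjusted p of 0.188, 0.149 and 0.0610 without library 1, 2 and 3. An exon of Senp1, at 4.14, 5.61 and 6.82 TPM, overlaps an exon of Pfkm by 18 bases on the opposite strand, and the sources used here do not say whether reads were counted by strand.

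The 6-phosphofructo-2-kinases set the level of fructose-2,6-bisphosphate, the activator of phosphofructokinase. Pfkfb1, the liver form, had 0.36, 0.30 and 0.65 TPM, and Pfkfb2, the heart form, had 1.44, 0.99 and 1.87 TPM in libraries 1, 2 and 3. Pfkfb3, the inducible form with the highest kinase activity, had 3.86, 3.05 and 5.48 TPM, and Pfkfb4 had 7.36, 6.36 and 5.01 TPM. Pfkfb1 and Pfkfb2 were the lowest and second lowest of the 4 in each library, and neither was called on either side of 1 TPM. The log2 ratio of Pfkfb1 to Pfkfb2 was -1.53 ± 0.19, and that of Pfkfb2 to Pfkfb3 was -1.47 ± 0.09 (n = 3 each). Pfkfb3 lay below Pfkfb4 in libraries 1 and 2, with log2 ratios of -0.91 and -1.04, and level with it in library 3, at 0.13. Counted in protein-coding transcripts alone, Pfkfb3 lay above Pfkfb4 instead, by a mean log2 ratio of 1.12; 14.5% of the TPM of Pfkfb4 lay in such transcripts. Fbp1, which reverses the phosphofructokinase step in gluconeogenesis, had 13 counts in library 1, or 0.09 TPM, and 0 counts in libraries 2 and 3. By counting error alone, taking 3 counts as the limit, 0 counts allow up to 0.0321 and 0.0529 TPM in libraries 2 and 3. The deposited intervals of the Fbp1 TPM reached higher there, to 0.0879 and 0.145 TPM.

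In the lower part of glycolysis most steps rested on 1 abundant gene. Aldoa, the main aldolase, had 35.3, 30.4 and 28.4 TPM, and Aldoc, the brain form, had 0.14, 0.81 and 0.08 TPM in libraries 1, 2 and 3. Aldoa held 99.6%, 97.4% and 99.7% of the listed aldolase TPM. Gapdh, glyceraldehyde-3-phosphate dehydrogenase, was the third most abundant gene of the 40 at 37.1, 33.7 and 44.6 TPM. By gene TPM, Tpi1, Pgk1 and Pgam1 were lower than Gapdh in each library. Tpi1, triose-phosphate isomerase, had 7.55, 8.31 and 10.6 TPM. Pgk1, which makes the first ATP of the pathway, had 21.1, 17.6 and 13.2 TPM, and Pgam1, a phosphoglycerate mutase, had 12.6, 12.8 and 12.1 TPM. Pgam1 varied least of these, with a coefficient of variation of 2.74%, against 18.2% for Tpi1 and 22.9% for Pgk1. The order changed in protein-coding transcripts alone, where Gapdh had 11.3, 10.4 and 12.4 TPM and ranked 11th of the 40 by mean. On that scale Gapdh lay below Pgk1 in each library and below Pgam1 in libraries 1 and 2.

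Eno1, the widespread enolase, had 30.2, 22.5 and 36.2 TPM in libraries 1, 2 and 3, and Eno2, the neuronal enolase, had no counts in any library. A count of 0 allows Eno2 up to 0.0261, 0.0239 and 0.0390 TPM, taking 3 counts as the limit per library, and such limits cover counting error only. The deposited interval of the Eno2 TPM lay above that limit in each library, at 0.117 to 0.381, 0.104 to 0.343 and 0.167 to 0.572 TPM, so no fold between the enolases is given. In the table made from the reads Eno2 was listed at 0.121, 0.0575 and 0.247 TPM.

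The enolase step turns on a gene outside the 40. Eno3, the muscle enolase, had 43.4, 42.4 and 24.4 TPM, singled out after its values were seen. Eno1 lay below Eno3 in libraries 1 and 2, by log2 ratios of -0.52 and -0.91, and above it in library 3, by 0.57. Eno3 made up 59.0%, 65.3% and 40.2% of the TPM of the 3 enolases. In the tables made from the reads Eno1 lay above Eno3 in every library, by 0.30, 0.07 and 1.18, so the order of these enolases depended on the table. Those tables gave a higher mean TPM for each of the 33 pathway genes at 1 TPM or more, by a median of 1.93-fold, and 1.92-fold over 8298 protein-coding genes, with Hk2 lowest at 1.22-fold and Slc2a6 highest at 3.47-fold. Eno1b, a gene 99.5% identical to Eno1 over the aligned transcript, was listed at 11.7, 9.69 and 6.88 TPM, and reads of these genes may have been divided between them.

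Pyruvate kinase, the last step of glycolysis, was carried by Pkm alone among the listed genes, at 60.3, 51.2 and 51.3 TPM. Pkm lies on chromosome 9 from 59656368 to 59679375 (GRCm38, plus strand). Its transcripts carry either of a pair of mutually exclusive exons of 167 bases. The M1 exon is the form of muscle and brain, and the M2 exon the form of most proliferating and immune cells, whose enzyme is activated by fructose-1,6-bisphosphate. The exons, which tell the forms apart, are shown as read from the GENCODE M21 transcripts, with capitals at the 64 of 167 bases that differ between them when laid side by side without gaps (61.7% identity). The M2 exon is at chr9:59675568-59675734 and the M1 exon at chr9:59675029-59675195, both on the plus strand of GRCm38.
Pkm M2 exon: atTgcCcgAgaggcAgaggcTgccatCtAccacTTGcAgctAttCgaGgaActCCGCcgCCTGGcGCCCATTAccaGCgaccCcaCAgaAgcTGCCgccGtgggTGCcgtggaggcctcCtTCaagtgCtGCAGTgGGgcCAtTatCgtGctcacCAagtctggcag
Pkm M1 exon: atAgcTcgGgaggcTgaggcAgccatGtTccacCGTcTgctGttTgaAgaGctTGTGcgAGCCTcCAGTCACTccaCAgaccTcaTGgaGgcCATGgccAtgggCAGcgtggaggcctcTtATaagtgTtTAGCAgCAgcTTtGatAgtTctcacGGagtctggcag

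The M2 form was the larger part of Pkm in each library. Of 11 annotated transcripts, 1 carries the M2 exon, 2 carry the M1 exon and 8 carry neither. Transcripts with the M2 exon had 44.3, 41.8 and 33.1 TPM in libraries 1, 2 and 3, and transcripts with the M1 exon had 12.2, 7.29 and 12.4 TPM. The log2 ratio of M2 to M1 was 1.86, 2.52 and 1.41, so the groups of values did not overlap. The M1 share of both forms was 21.6%, 14.8% and 27.3%, with a mean of 21.3 ± 6.25% (n = 3). The share was an estimate that moved with the table: it averaged 11.0 ± 4.92% in the tables made from the reads and 8.93 ± 1.74% in the GENCODE M4 tables (n = 3 each). In all of these tables the M1 share stayed below the M2 share in every library.

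**Figure D3:**
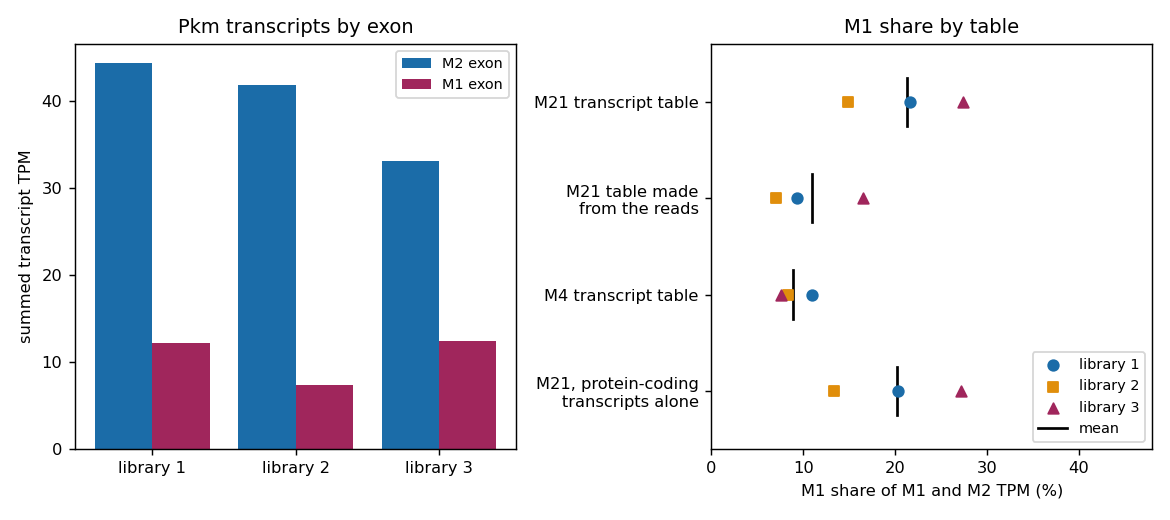
Left, summed TPM of Pkm transcripts that carry the M2 exon or the M1 exon in each library. Right, M1 share of the TPM of both forms, in percent, in each library (points) and on average (black bars) in 4 sets of transcript values, with means of 21.3%, 11.0%, 8.93% and 20.2% from top to bottom.

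Pyruvate is turned into lactate, exported or sent to the mitochondrion. Ldha, the subunit that favours lactate formation, had 30.7, 24.4 and 32.7 TPM, and Ldhb, the heart subunit, had 1.05, 0.48 and 0.36 TPM in libraries 1, 2 and 3. Ldha exceeded Ldhb by a log2 ratio of 5.43 ± 0.71 (n = 3) and held 96.7%, 98.1% and 98.9% of their TPM. Slc16a1, the lactate carrier MCT1, had 0.73, 0.45 and 0.64 TPM, and Slc16a3, the carrier MCT4 of lactate-exporting cells, had 9.98, 9.47 and 7.63 TPM. Their log2 ratio, Slc16a1 over Slc16a3, was -3.70 ± 0.38 (n = 3), and the ranges of the carriers did not overlap. Ldhb and Slc16a1 were called on neither side of 1 TPM, with adjusted p of 0.450 and 0.136 in edgeR's quasi-likelihood test.

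Pdha1 and Pdhb, the alpha and beta subunits of pyruvate dehydrogenase, which feeds pyruvate carbon into the citric acid cycle, averaged 21.8 ± 4.04 and 12.3 ± 2.16 TPM (n = 3 each). Pdha1 exceeded Pdhb in every library, with summed levels of both of 36.4, 33.7 and 32.4 TPM. The kinases that switch this enzyme off were lower. Pdk1 had 2.26, 2.04 and 1.40 TPM and Pdk3 had 2.97, 1.97 and 2.28 TPM, with a log2 ratio of -0.33 ± 0.36 (n = 3) whose sign was not the same in every library. Both lay above 1 TPM, and Pdk1 had the largest adjusted p of the 32 genes called above, 0.00565 in edgeR's quasi-likelihood test. Without library 1 the adjusted p of Pdk1 was 0.107 in that test, and with DESeq2 in place of edgeR the adjusted p was 0.406 for Pdk1 and 0.157 for Pdk3. Hif1a, which encodes the oxygen-regulated subunit of HIF-1, a factor that drives many of these genes, had 11.1, 10.1 and 8.97 TPM.

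All 7 pentose phosphate genes lay above 1 TPM, at levels that spanned from 3.95 TPM for Pgls to 95.7 TPM for Taldo1 on average. The oxidative branch, which makes NADPH, was of moderate level in each library. G6pdx, its entry enzyme, had 12.6, 11.6 and 13.0 TPM, Pgls, the lactonase, 3.27, 3.45 and 5.13 TPM, and Pgd, the second NADPH-forming enzyme, 8.50, 6.39 and 7.20 TPM. In the non-oxidative branch, Rpia and Rpe, which interconvert the pentose phosphates, averaged 6.40 ± 1.41 and 4.88 ± 0.757 TPM (n = 3 each). Tkt, transketolase, had 40.2, 43.8 and 28.7 TPM. Taldo1, transaldolase, which with transketolase links the pentose phosphates back to glycolysis, had 126, 105 and 56.5 TPM. It was the highest of the 40 genes in each library by gene TPM on GENCODE M21. In library 3 that place depended on the quantification. With GENCODE M4, Taldo1 had 45.4 TPM there, below Pkm at 47.1 and Gapdh at 45.9 TPM. In the tables made from the reads, Taldo1 at 95.5 TPM and Eno1 at 95.8 TPM were level in library 3. By its mean Taldo1 ranked 156th among 22028 protein-coding genes, ahead of Pkm at rank 285 and Gapdh at rank 409. It lies on chromosome 7 from 141392199 to 141402968 (GRCm38, plus strand).

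For several of the most abundant genes, much of the level lay outside the transcripts annotated as protein-coding. Taldo1-205, a processed transcript of 915 bases, had 85.0, 65.1 and 39.4 TPM in libraries 1, 2 and 3, and the protein-coding Taldo1-201 had 38.0, 37.2 and 15.9 TPM. Protein-coding transcripts thus held 31.8% of the mean TPM of Taldo1. They held 18.7% for Tkt, where the processed transcript Tkt-209 had 26.7, 31.2 and 14.4 TPM against 7.88, 6.73 and 6.41 TPM of the protein-coding Tkt-201. For Gapdh they held 29.5%, with 24.1, 20.6 and 23.1 TPM in Gapdh-206, a transcript of 565 bases annotated as a retained intron. For Gpi1 they held 40%, with 13.3, 13.0 and 7.52 TPM in Gpi1-207, annotated as a target of nonsense-mediated decay.

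Protein-coding transcripts held under 60% of the gene's TPM for 14 of the 40 genes, Hk2, Hk3, Pfkp, Slc2a6 and Pfkfb4 among them. The median share was 81.0%. No such share over all protein-coding genes is given here, so these values do not show whether the pathway differs from other genes. Pkm, Aldoa, Pgk1, Eno1 and Ldha were at 93.8%, 96.1%, 99.1%, 88.3% and 90.6%. On the scale of protein-coding transcripts alone Pkm was the highest gene, at 50.9 ± 5.40 TPM (rank 228 among protein-coding genes), and Taldo1 followed at 30.4 ± 12.5 TPM (rank 410, n = 3 each). Counted by gene, 32 genes reached 1 TPM in each library, and counted by protein-coding transcripts, 30 did. The division of reads among transcripts of a gene is an estimate of the quantification, and it moved with the annotation. In the GENCODE M4 tables the gene level of Taldo1 was 101, 86.1 and 45.4 TPM, that of Tkt 26.6, 28.1 and 18.9 TPM and that of Pfkfb4 4.37, 3.55 and 2.96 TPM, each lower than with M21 in every library. For Aldoa, Gapdh and G6pdx the mean differed between the annotations by under 5%. In the tables made from the reads the processed transcript of Taldo1 again exceeded the protein-coding one, with 109, 76.7 and 57.6 TPM for Taldo1-205 against 80.6, 69.4 and 33.8 TPM for Taldo1-201. Hk2-202, a processed transcript of 594 bases, did not keep its level: it had 3.67, 3.10 and 1.28 TPM in the transcript tables used here and 0.374, 1.16 and 0.461 TPM in the tables made from the reads.

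**Figure D4:**
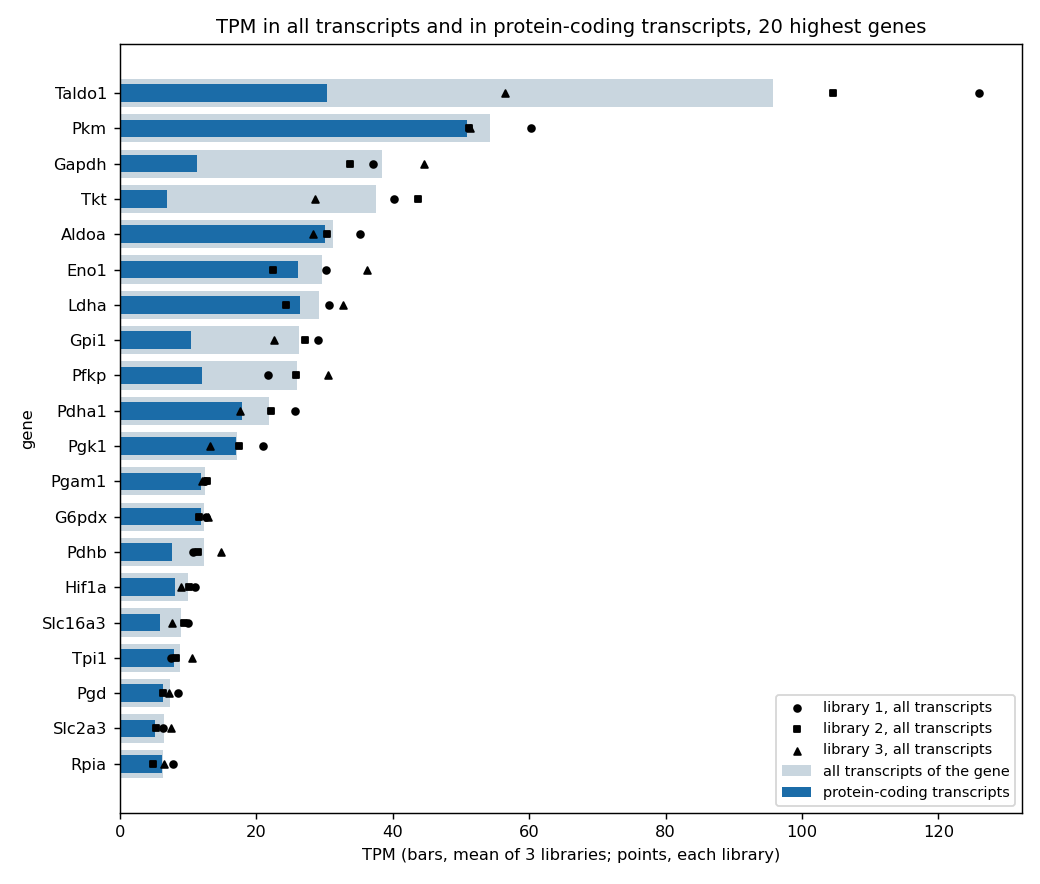
Mean TPM over 3 libraries of the 20 most abundant of the 40 genes, in all transcripts of the gene (wide pale bars) and in protein-coding transcripts alone (narrow dark bars), with the TPM of all transcripts in each library as points. Taldo1 drops to 30.4 TPM and Tkt to 7.01 TPM in protein-coding transcripts, while Pkm stays at 50.9 TPM.

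Single libraries were also set against each other, as a description with no replicate check. Differences are log2 of TPM + 0.1 relative to the median of the 8302 protein-coding genes at a mean of 1 TPM or more, a median that itself moved by 0.21 for library 3 over library 1 and by 0.37 for library 3 over library 2. Of the 33 pathway genes at that level, 2 were lower by 1 or more in library 3 than in library 1, Taldo1 by -1.36 and Hk2 by -1.12, where 5.36% of all those genes were. None was higher by 1 or more, where 6.96% of all were. Against library 2, library 3 was lower by 1 or more in 4 of 33, Hk3 at -1.61, Taldo1 at -1.26, Hk2 at -1.06 and Slc2a6 at -1.003, with a background of 5.53%, and higher in none, with a background of 6.94%. Library 2 over library 1 passed 1 in neither direction for any of the 33, with 3.18% of all genes higher and 3.23% lower. Counts of 0 to 4 among 33 genes were not tested against these background shares. Without the median taken off, Taldo1 was still lower by 1 or more in library 3 than in library 1, but Hk2 differed by -0.92, and over library 2 the differences of Taldo1, Hk2 and Slc2a6 were -0.89, -0.69 and -0.63.

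The median difference of the 33 genes was -0.45 in library 3 over library 1 and -0.40 in library 3 over library 2, against 0.02 in library 2 over library 1. Both comparisons with library 3 share that library. Hk1 showed the largest positive difference in each of them, 0.76 over library 1 and 0.51 over library 2. Library 3 stood apart in its blood cell markers as well, and the part of other cells in the lower levels of Taldo1, Hk2, Hk3 and Slc2a6 was not tested. In libraries 1 and 2 alone Hk2 exceeded Hk1, and Taldo1 was the highest gene in each.

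**Figure D5:**
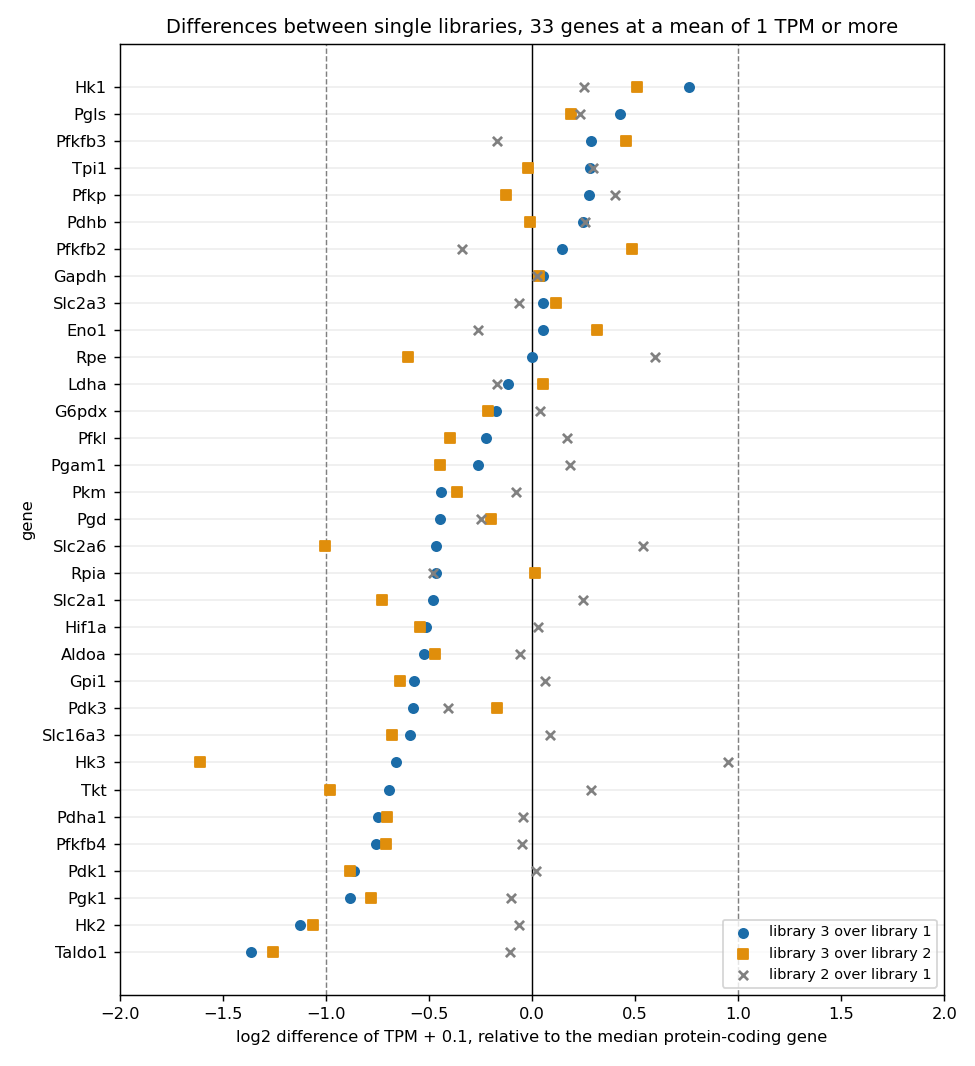
Log2 difference of TPM + 0.1 between single libraries, relative to the median protein-coding gene, for the 33 genes at a mean of 1 TPM or more, ordered by library 3 over library 1, with dashed lines at -1 and 1. Taldo1 and Hk2 lie beyond -1 in both comparisons with library 3, and no gene lies beyond 1.

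Further genes of the same pathways were taken from a list of 53. Of these 35 had enough counts to be tested, and 19 lay above 1 TPM and 0 below. That share of 54.3% is near the 54% of protein-coding genes and above the 43.3% of all genes tested. Their median level was 0.91 on the log2 scale, against 1.06 for protein-coding genes and 0.24 for all genes. After Eno3, the highest were Mpc2, a subunit of the mitochondrial pyruvate carrier, at 22.3, 23.3 and 12.3 TPM, and Bsg, the chaperone of the lactate carriers, at 19.5, 14.8 and 18.5 TPM. Bpgm, the red cell enzyme that makes 2,3-bisphosphoglycerate, had 21.1, 16.1 and 3.31 TPM, lowest in library 3 like the red cell markers at 3533, 3326 and 263 TPM, and their part in it was not tested. Dld, the dihydrolipoamide dehydrogenase of the pyruvate dehydrogenase complex, had 13.3, 9.10 and 13.4 TPM.

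Some levels share reads with other genes. At 95% identity or more over at least 200 bases, 11 of the 40 genes had a relative in the annotation, and for 3 of them the relatives summed to over 5% of the gene's own level. These were Eno1 at 34.9%, Pgk1 at 12.9%, where the pseudogenes Pgk1-rs7 and Gm5537 were listed, and Gapdh at 8.45% over 77 relatives. Their levels are uncertain by the part of reads that the counting placed on the copies. Exons of Pfkp overlap those of Pitrm1 on the opposite strand by up to 748 bases, those of Rpe overlap Kansl1l by up to 558 bases and those of G6pdx overlap Ikbkg by up to 278 bases. Pitrm1 had a mean of 2.88 TPM, Kansl1l 2.15 TPM and Ikbkg 3.70 TPM, each below the mean of the gene it overlaps. Apex2 and Senp1, at means of 0.61 and 5.52 TPM, lay above Pfkfb1 and Pfkm, which they overlap on the opposite strand. Pdha1 overlaps Map3k15 on the opposite strand by up to 425 bases. On the same strand, Pkm overlaps Gm49759 by up to 454 bases and Pgls overlaps Fam129c by up to 404 bases. Gm49759 had a mean of 2.2 TPM and Fam129c 0.877 TPM.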

How the data were processed

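Total RNA was sequenced from 3 monocyte libraries. Per the file headers, the deposited gene tables give an expected (estimated) count and a TPM per gene on GENCODE M21 and M4 (assembly mm10), with interval bounds of each TPM (a signal that is never negative). The deposited transcript tables give the same per transcript, and a further M21 table, made from the reads, lists TPM and an estimated count for each transcript. All of these tables hold estimates from the sequenced libraries. The phrase made from the reads is used only to tell the further M21 table from the others. The sources used here do not name the programs or the strand setting. Rows that name no gene held at most 0.000571% of M21 counts and stayed out of the tests. Rounded expected counts entered edgeR 4.0.16 (glmQLFit with an intercept, offset the log of the count that 1 TPM stands for). The F test, computed from deviances and moderated dispersions, is a two-sided test of 1 TPM over the 17678 genes whose counts summed to at least 10 and whose effective length was above 0, with Benjamini-Hochberg adjustment at 0.05. Isozymes were compared as within-library differences of log2(TPM + 0.1). Pkm transcripts were assigned by exon coordinates in GENCODE M21. Relatives were searched with BLAST+ 2.17.0. Alternatives were DESeq2 1.42.0, limma 3.58.1, other scalings, filters, levels, tables and pseudocounts, and each library left out. Symbols came from the transcript tables. A second gene ID under the symbol Aldoa had 0 counts and was not used.

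Full values are given for steps with isozymes and for the genes with the highest mean TPM, and ranges or means for the rest. The genes and lists were chosen with earlier results of these data known. The comparison over protein-coding transcripts alone and that of Eno1 with Eno3 were chosen after seeing the data. No protein sequence was used here.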

Additional observations from a re-analysis of the deposited data

How the results depend on the processing

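The count of the 40 genes above 1 TPM stayed between 30 and 38 under every alternative run and between 31 and 32 with each library left out. The count below 1 TPM, 1 in the fit reported, was less stable: it was 0 with DESeq2, with TPM over protein-coding genes, with no filter on low counts, with the transcript tables made from the reads and at a level of 0.5 TPM. It was 4 with limma, 2 at a level of 2 TPM and 0 with any 1 library left out.

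Of the 53 further genes, 8 instead of 19 lay above with DESeq2 and 8 at a level of 2 TPM. Below 1 TPM lay 9 with limma, 3 with TMM factors, 3 with DESeq2 size factors, 2 with the tables made from the reads, 5 at a level of 2 TPM and 0 to 2 with each library left out.

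On the scale of protein-coding genes alone the level of 1 TPM is lower, by construction, and the log2 level changed sign for Pfkm (1.55), Pfkfb1 (2.05), Aldoc (1.78), Ldhb (2.57) and Slc16a1 (2.52). Against 2 TPM that of Pdk1 was -0.075.

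Among isozyme ratios, the sign turned with the tables made from the reads for Slc2a6 over Slc2a3 (0.69), Hk1 over Hk2 (0.12) and Hk3 over Hk2 (0.078). With protein-coding transcripts alone it turned for Hk1 over Hk2 (0.16) and Pfkfb3 over Pfkfb4 (1.12), and with the M4 tables for Pfkfb3 over Pfkfb4 (0.17). With libraries left out, Hk1 over Hk3 ranged from -0.50 to 0.56, the lowest without library 3. The cause was not tested. The mean of the other 183 ratios kept its sign. The direction in single libraries was counted too: of the 15 pairs with 1 direction in 3 of 3 libraries, 15 kept it in the M4 tables, 14 in the tables made from the reads (not Hk3 over Hk2) and 11 with protein-coding transcripts alone, where Pfkfb2 lay above Pfkfb4 by 0.21 and 0.18 in libraries 1 and 3, Pfkfb1 above Pfkfb2 by 1.51 and Hk3 above Hk2 by 0.13 in library 2, and Slc2a1 above Slc2a6 by 0.63 in library 3.

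The M1 share of Pkm was 11.0% in the tables made from the reads and 8.93% in the M4 tables, and 18.2% to 24.5% with each library left out. Of 297 recomputed differences between single libraries, 11 crossed a log2 difference of 1 in size.

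No paired analysis was possible because the series holds 1 group and no contrast. Genes under a summed count of 10 were not tested. Limits cover counting error only.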
